A study of Mus musculus with 8 samples.

Results

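The genes described here are 10 genes of the glucocorticoid response: *Fkbp5*, *Tsc22d3*, *Zbtb16*, *Sgk1*, *Cdkn1a*, *Errfi1*, *Map3k6*, *Angptl4*, *Nr3c1* and *Hsd11b1*. They were found by gene name among the 59305 spots of the array that are not controls, and every probe of each gene was kept. This gave 20 probes, each spotted once, of 56605 probes and 37074 gene names in all. The study asked how endotoxemia caused by *Porphyromonas gingivalis*, a bacterium of periodontal disease, changes adipose tissue. Male C57BL/6J mice aged 12 weeks received 1 intravenous injection of 100 μL, either of saline (Co mice) or of saline with sonicated *P. gingivalis* (Pg mice). The dose was 100000000 CFU by the methods and reads 108 CFU in the labels. After 18 h, RNA of tissue labelled brown adipose tissue (BAT) was hybridized to one-color Agilent arrays, with 4 arrays per group and 1 array per sample. The labels do not say whether a sample is 1 animal or a pool, so p-values measure the spread between these samples.

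Glucocorticoids are steroid hormones of the adrenal cortex that rise in endotoxemia. They bind the glucocorticoid receptor, a transcription factor kept in the cytoplasm by chaperones, which then enters the nucleus, induces genes through DNA elements of its own and represses many inflammatory genes. In adipose tissue and muscle these hormones act on fuel release, fat storage and protein breakdown.

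Levels are given as log2 signal, that is, the log2 of the background-subtracted Cy3 intensity after quantile normalization between the 8 arrays, and a difference of 1 is a 2-fold change. Differences are Pg minus Co. A probe was tested with limma if it was well above background on at least 4 of the 8 arrays, which 33819 probes were, and q is its p adjusted by Benjamini and Hochberg over all of these. Probes past a q of 0.1 that also changed more than 1.5-fold are called differentially expressed (DEG). Of the 20 probes of the 10 genes, 17 were tested, and each gene had at least 1 tested probe.

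The 8 arrays shared 1 slide and 1 scan. Row 1 of the slide held the Co and row 2 the Pg arrays, and the effect of the row cannot be told apart from that of the group. The number of probes well above background was 34760 to 35831 on Co arrays and 31132 to 34063 on Pg arrays. Of 10 brown adipocyte markers, 8 were well above background on all 8 arrays, but *Ucp1*, the uncoupling protein that defines the brown adipocyte, and *Elovl3* were so on none. All 12 skeletal muscle markers and all 10 general adipocyte markers were well above background on all 8 arrays. The log2 of the summed signal of the muscle markers was 21.47 to 21.58 in Co and 21.40 to 21.53 in Pg. For the adipocyte markers it was 17.69 to 17.87 in Co and 17.62 to 17.88 in Pg. For the 10 leukocyte markers it was 15.11 to 15.31 in Co and 15.08 to 15.73 in Pg. The muscle sum rested on the brightest markers, such as *Tnnt3*, which stayed at 18.81 to 18.84 on all arrays. *Myh4* varied most, from 13.38 to 16.97 in Co and from 11.38 in Pg1 to 17.07 in Pg2. Of the 12 muscle markers 11 were lower in Pg, beside 52.8% of all genes, and 3 had an unadjusted p under 0.05, beside 20.3% of all genes, and all 3 measured red blood cell markers were lower, with a median difference of -0.63 and Pg3 the lowest array. The part of these tissues and cells in the results below was not tested. In such bulk RNA, fewer cells of a type and less RNA per cell cannot be told apart.

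Most tested probes of the glucocorticoid response genes had a lower mean in Pg than in Co mice. The difference was negative for 15 of the 17 tested probes, against 57.7% of all tested probes, and its median was -0.40, against -0.04 over all tested probes. This median was -0.21 without Co1 and -0.26 with normexp background correction. With 1 probe per gene, the brightest, it was negative for 9 of 10 genes, against 52.8% of 22323 genes, with a median of -0.21 against -0.01. By that probe none of the 10 genes was a DEG in limma (1.18% of all genes were), 3 had an unadjusted p under 0.05 (20.3% of all genes), and 1, *Tsc22d3*, had a q under 0.1 (6.23% of all genes). Few of these differences passed the test. Only 1 probe, which the array names *Fkbp5*, was a DEG, beside 1.61% of all tested probes and 1.3% in the downward direction. The balance of DEG probes over the whole array, 440 lower and 106 higher, turned with the processing, to 28 and 66 with normexp, 33 and 75 without background subtraction, 7 and 20 without normalization, and 46 and 60 with the authors' values. In all, 3 probes had a q under 0.1, the same *Fkbp5* probe and both tested *Tsc22d3* probes, all lower in Pg (background 7.82%, or 6% lower in Pg). The same 3 probes were those on which all Pg arrays lay below all Co arrays, a pattern shown by 11% of all tested probes. An unadjusted p under 0.05 was found for 7 of the 17 probes, all lower in Pg, against 16% of all tested probes that were lower at this level.

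**Figure D1:**
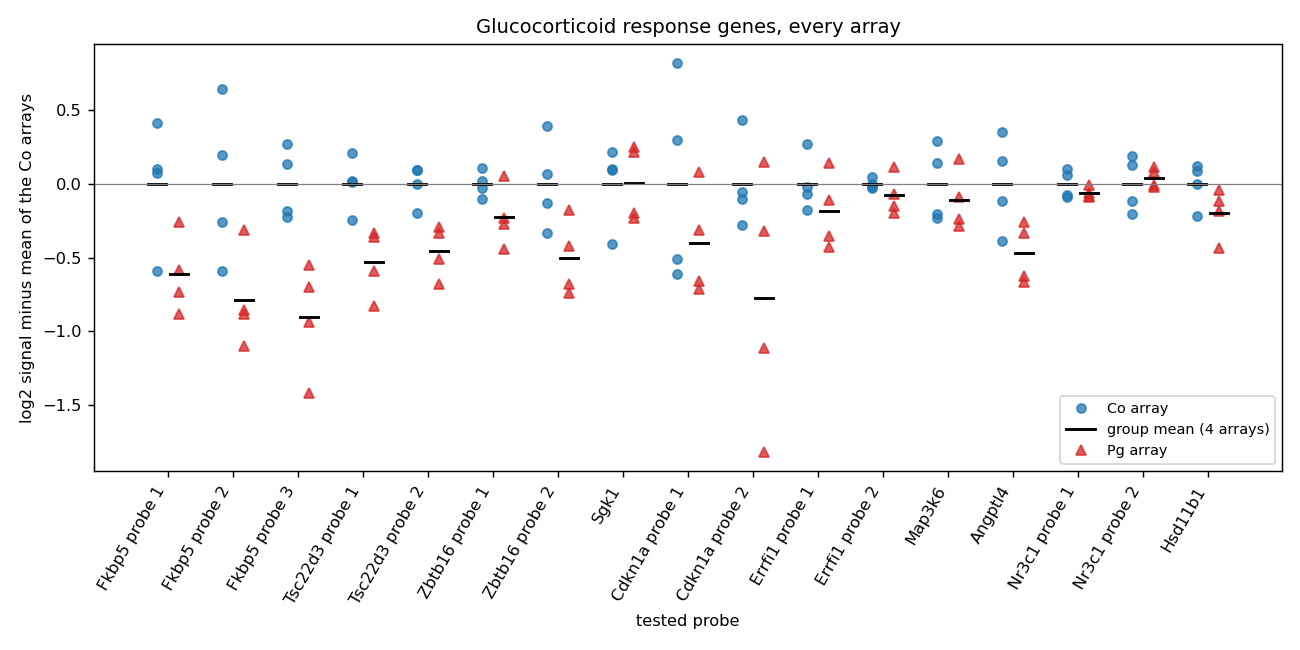
Log2 signal of each array minus the mean of the 4 Co arrays (vertical axis, log2 units) for the 17 tested probes (horizontal axis; probes of a gene are numbered from the brightest), with Co arrays as circles, Pg arrays as triangles and group means as black bars. For probe 3 of Fkbp5 and both probes of Tsc22d3 all 4 triangles lie below all 4 circles, while the groups overlap for the other 14 probes.

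**Figure D2:**
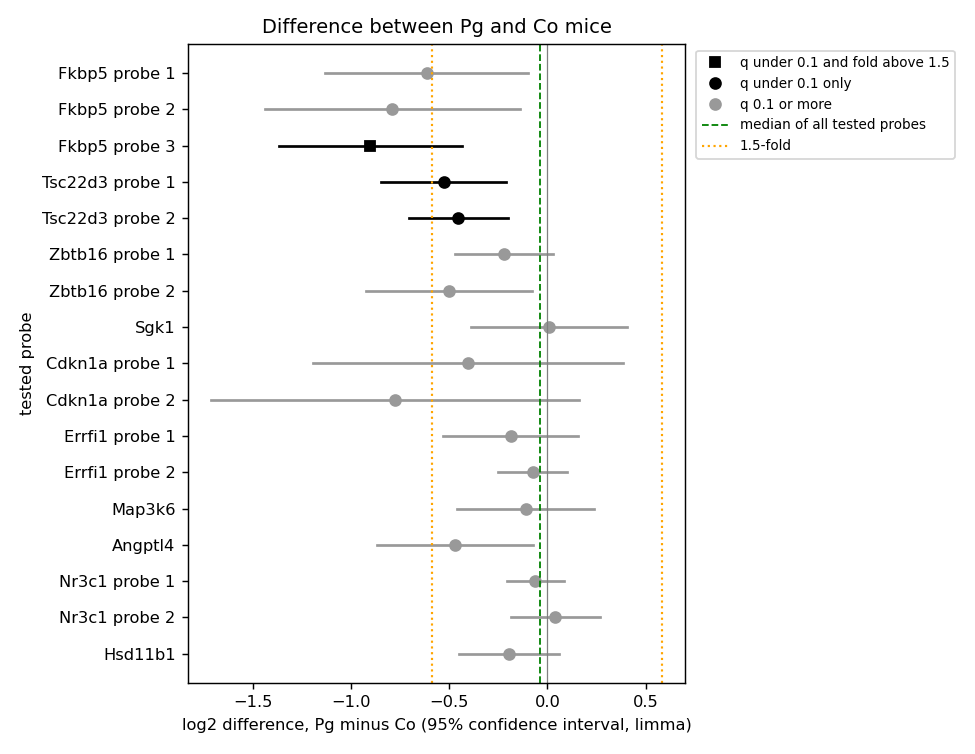
Log2 difference between Pg and Co mice (horizontal axis) with its 95% confidence interval from limma for the 17 tested probes (vertical axis). Of the 17 points, 15 lie below 0, 3 have a q under 0.1, and 1 of these, probe 3 of Fkbp5, also lies past the dotted line of a 1.5-fold change.

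The letters of the receptor's DNA element were looked for in RefSeq promoter windows of the build GRCm38.p6, each from 250 bases before to 50 after an annotated start of a gene. Of the 10 genes, 7 had a window, with 16 windows in all (6 for *Sgk1*, 3 for *Tsc22d3*, 2 each for *Cdkn1a* and *Errfi1*, and 1 each for *Fkbp5*, *Map3k6* and *Hsd11b1*), and *Zbtb16*, *Angptl4* and *Nr3c1* had none. The full palindrome, AGAACA and TGTTCT with 3 bases between them, was present in 3 of 32851 windows (0.00913%), and 1 of these belonged to *Sgk1*. A single arm of it, AGAACA, searched on both strands and contained in each palindrome, was present in 6233 windows (19%), and in 4 of the 16 windows of these genes, 3 of *Sgk1* and 1 of *Tsc22d3*. The 2 stretches below are shown because they hold the full palindrome and the match in *Tsc22d3*, the gene with a q under 0.1 on both tested probes, with the match in capitals, and both are written 5′ to 3′ on the strand of the gene and end before the annotated start to which their window belongs. The first lies at chr10:21993671-21993745 on the plus strand, and its match starts 189 bases before 1 of the 6 annotated starts of *Sgk1*. This start is not the outermost one, so the stretch lies inside the gene, which RefSeq places on chromosome 10 at 21882184 to 21999903. The second lies at chrX:140600672-140600737 on the minus strand, and its single arm, which reads AGAACA on the other strand, starts 185 bases before the gene start.
Sgk1 palindrome: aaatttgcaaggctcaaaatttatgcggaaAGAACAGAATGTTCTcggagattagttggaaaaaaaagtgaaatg
Tsc22d3 single arm: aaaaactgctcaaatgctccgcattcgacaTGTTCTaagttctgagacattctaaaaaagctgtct
These are matches of letters, and binding of the receptor was not measured.

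*Fkbp5* encodes FKBP51, a co-chaperone that binds the receptor complex, lowers its affinity for the hormone and is itself induced by it. The gene lies on chromosome 17 at 28398753 to 28486149 in GRCm38, and 3 probes name it. Probe 1 (A_55_P1952379) and probe 2 (A_52_P481493) were designed on the transcript NM_010220 and lie at 28536060 to 28536119 and 28574995 to 28575054 on the minus strand in the older build mm9, which the array files use. Probe 3 (A_66_P107081) was designed on another transcript, ENSMUST00000147716, and lies at 28634702 to 28634761 in mm9, 59707 bases from probe 2, which in turn lies 38935 bases from probe 1. Symbols were looked up by RefSeq accession, so the Ensembl transcript of probe 3 could not receive one. Its name *Fkbp5* comes from the array alone. The 3 probes span more bases of mm9 than the 87397 bases of the RefSeq gene in GRCm38. The first 30 of the 60 bases of each probe are given, since the 3 probes that the array names *Fkbp5* did not receive the same call.
Fkbp5 probe 1: gggaggccctgtctcaaaacaaaacaaaaa
Fkbp5 probe 2: gaggccccaatgtttggtgacaaagtttat
Fkbp5 probe 3: acaaaaacctaccaactcatccaacatgat
None of the 20 probes shared a run of 20 bases with any of the array's probes of another gene name. Transcripts without a probe and inexact matches were not searched.

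The difference was negative on all 3 probes named *Fkbp5*, and it passed the test on probe 3. On probe 3, the log2 signal was 6.92, 6.79, 6.47 and 6.43 in Co1 to Co4 and 5.23, 5.72, 6.10 and 5.96 in Pg1 to Pg4. Each Pg array lay below each Co array, Pg1 the lowest. The difference was -0.90 ± 0.20 (SE; 95% confidence interval -1.37 to -0.43), a ratio of 0.535 (limma, q = 0.0664), and 0.615% of all tested probes had a more negative difference. The size depended on the background correction: it was -0.49 with normexp (q = 0.0425) and -0.53 without background subtraction (q = 0.0514), both under 1.5-fold. This probe was dim. Of the 23533 tested probes with a mean log2 signal under 10, 2.24% were DEGs, against 0.194% of the 10286 brighter ones.

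The 2 brighter probes, both on the RefSeq transcript, gave a wide spread among the Co arrays. On probe 1, the log2 signal was 13.24, 12.93, 12.23 and 12.90 in Co1 to Co4 and 12.24, 11.94, 12.57 and 12.10 in Pg1 to Pg4. Co3 lay below Pg1 and Pg3, so that the groups overlapped, and Co1 and Co3 alone differed 2.01-fold. The difference was -0.61 ± 0.22 (limma, q = 0.161; 95% confidence interval -1.13 to -0.10).

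On probe 2, the log2 signal was 10.23, 9.78, 8.99 and 9.32 in Co1 to Co4 and 8.70, 8.48, 9.27 and 8.72 in Pg1 to Pg4. Here 3 of the 4 Pg arrays lay below the lowest Co array, and Pg3 lay above Co3. The difference was -0.79 ± 0.28 (limma, q = 0.154; 95% confidence interval -1.44 to -0.14), with a Co spread of 2.36-fold. On both probes Co1 was the highest and Pg2 the lowest of all arrays, and Pg3 was the highest Pg array. Without Co1 the difference of probe 1 was -0.47 and that of probe 2 was -0.57, and without Co3 they were -0.81 and -0.98, with no q under 0.1 in any of these fits.

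*Tsc22d3* encodes GILZ, a leucine zipper protein induced by glucocorticoids that holds back inflammatory transcription factors. It lies on chromosome X at 140539528 to 140600522 in GRCm38, and both of its probes that could be tested were designed on NM_001077364. *Tsc22d3* was lower in Pg mice on both, by less than 1.5-fold. On probe 1 (A_55_P1989061; X, 137074094 to 137074153 in mm9), the log2 signal was 14.27, 14.26, 14.004 and 14.46 in Co1 to Co4 and 13.42, 13.66, 13.92 and 13.89 in Pg1 to Pg4. All Pg arrays lay below all Co arrays, with Pg3 just under Co3. The difference was -0.53 ± 0.14, a ratio of 0.693 (limma, q = 0.0866).

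Probe 2 (A_55_P2741276; 137074801 to 137074860 in mm9) gave 13.03, 12.93, 12.73 and 13.03 in Co1 to Co4 and 12.25, 12.42, 12.64 and 12.60 in Pg1 to Pg4. As on probe 1, all Pg arrays lay below all Co arrays, Pg1 was the lowest array and Co3 the lowest Co array. The difference was -0.45 ± 0.11, a ratio of 0.731 (limma, q = 0.0734). Both probes thus passed the limit on q and missed that on the fold change. A probe 3 on the transcript ENSMUST00000152048 did not rise well above background on any array and was not tested.

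When any of the arrays other than Pg3 was left out, none of the 17 probes had a q under 0.1, and 4 to 6 had an unadjusted p under 0.05. Across the 8 fits that left out 1 array, the difference of *Fkbp5* probe 3 stayed between -1.02 and -0.73 (q 0.0684 to 0.145), that of *Tsc22d3* probe 1 between -0.61 and -0.43, and that of *Tsc22d3* probe 2 between -0.52 and -0.38. Without Pg3, *Fkbp5* probe 3 and *Tsc22d3* probe 1 were DEGs. Over the whole array, the number of DEG probes moved from 546 to between 2 (without Co3) and 692 (without Pg3).

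**Figure D3:**
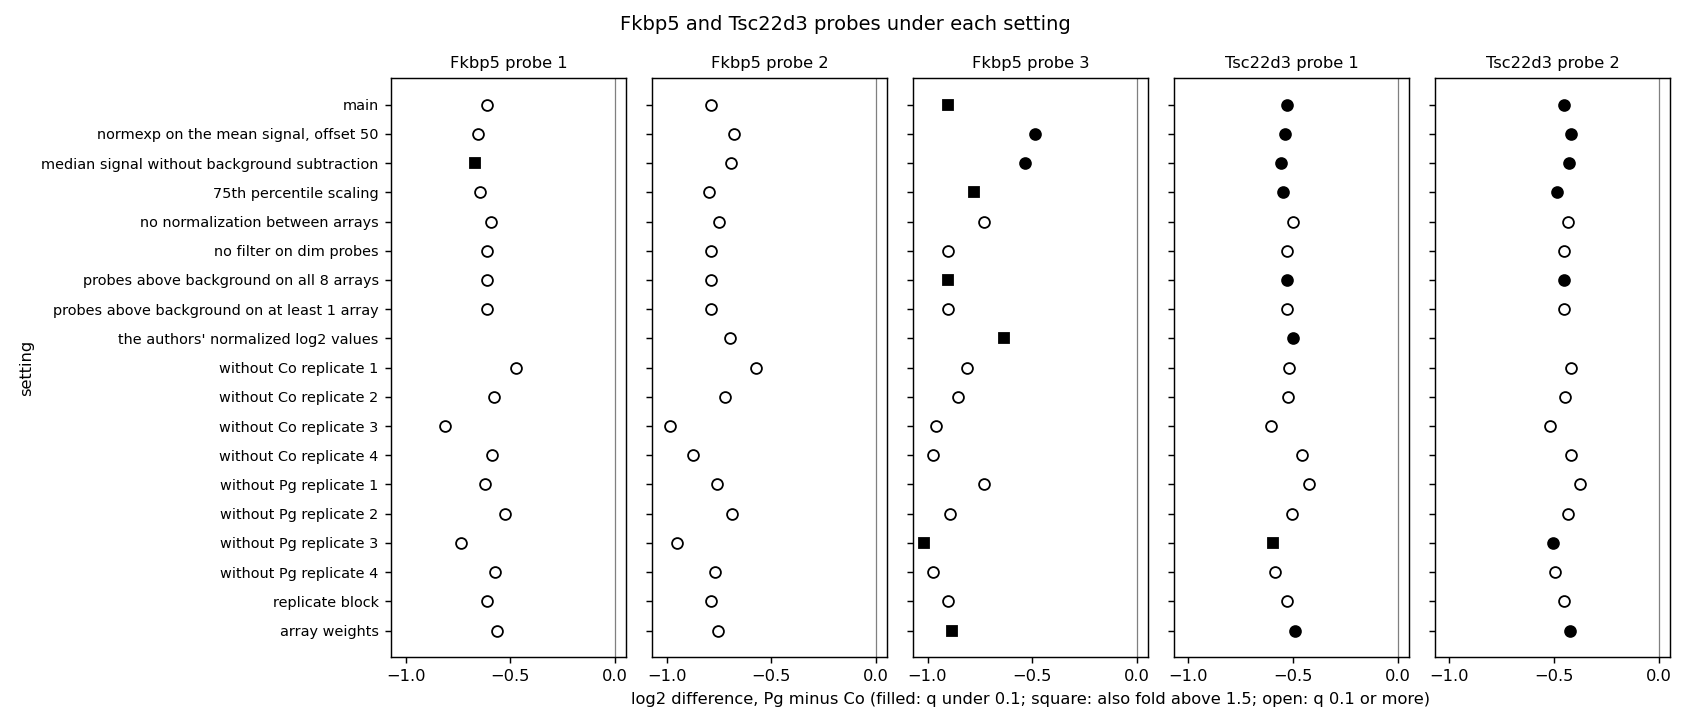
Log2 difference between Pg and Co mice (horizontal axes) of the 3 Fkbp5 and 2 tested Tsc22d3 probes (panels) under each way of processing and with each array left out (vertical axis); filled marks have a q under 0.1, squares also a fold change above 1.5, and a missing mark means that the probe was not listed. Every difference is negative, and filled marks appear in only 1 of the 8 fits that left out an array.

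Same-numbered Co and Pg arrays also shared a column of the slide, so the differences were taken within each column. In column 1, the Pg array was lower on 17 of the 17 probes, with a median difference of -0.68. In columns 2 and 4 it was lower on 13 and 12 probes, with medians of -0.51 and -0.13. In column 3, which holds Co3 and Pg3, it was lower on 8 and higher on 9, with a median of 0.07. Over all tested probes, the Pg array was lower on 54.8% to 58.2% in each column. *Fkbp5* probe 3 was lower in Pg in all 4 columns, by -1.69, -1.07, -0.37 and -0.48. Both *Tsc22d3* probes were also lower in all 4, from -0.85 to -0.09 for probe 1 and from -0.78 to -0.10 for probe 2. With the column as a block, q was 0.161 for *Fkbp5* probe 3 and 0.152 and 0.159 for the *Tsc22d3* probes, and no probe of the whole array was a DEG.

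*Zbtb16* encodes PLZF, a zinc finger transcription factor induced by glucocorticoids. It did not pass the test on either probe, and Pg3 was the highest Pg array on both, as on *Fkbp5*. The brighter probe (A_55_P2024155) gave 14.27, 14.36, 14.15 and 14.23 in Co1 to Co4 and 14.02, 13.81, 14.31 and 13.98 in Pg1 to Pg4. Only Pg3 lay among the Co arrays, and the difference was -0.22 (limma, q = 0.266; 95% confidence interval -0.47 to 0.03). The dimmer probe (A_66_P119534), whose mm9 positions, 48473399 to 48525415, span far more than its 60 bases, gave 9.70, 9.37, 8.97 and 9.17 in Co and 8.88, 8.56, 9.13 and 8.62 in Pg. Again Pg3 alone reached into the Co range, and the difference was -0.50 ± 0.18 (q = 0.160).

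*Sgk1* encodes a kinase induced by glucocorticoids and mineralocorticoids that regulates ion channels and nutrient uptake. It did not differ between the groups beyond the spread. Its main probe (A_51_P118237) gave 13.38, 13.26, 12.75 and 13.26 in Co1 to Co4 and 12.96, 12.93, 13.38 and 13.42 in Pg1 to Pg4. The groups covered the same range, and the difference was 0.01 ± 0.17 (limma, q = 0.982; 95% confidence interval -0.39 to 0.41), with a sign that turned to -0.02 when arrays were scaled to their 75th percentile. A second probe (A_52_P352246), designed on the transcript ENSMUST00000143094, rose well above background on 2 Pg arrays and on no Co array, so it was not tested. Its log2 signal was 2.19 to 2.36 in the 4 Co arrays and 6.07, 2.68, 2.81 and 5.50 in Pg1 to Pg4. Pg1 and Pg4 stood apart from the others.

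*Cdkn1a*, which encodes an inhibitor of cyclin-dependent kinases, showed the widest spread among Co arrays of the 17 tested probes. Its main probe (A_51_P363947) gave 12.61, 12.09, 11.28 and 11.18 in Co1 to Co4, a range of 2.69-fold, and 11.48, 11.13, 11.87 and 11.08 in Pg1 to Pg4. Pg1 and Pg3 lay inside the Co range and Pg2 and Pg4 just below it, and the difference of -0.40 ± 0.34 was within the spread (limma, q = 0.520), and it was -0.13 without Co1. A dim probe on ENSMUST00000122348 (A_55_P1976204), well above background on 4 Co and 3 Pg arrays, gave a difference of -0.78 with a confidence interval from -1.71 to 0.16 (q = 0.297), and -0.26 with normexp or -0.43 without Pg2. The third probe was well above background on 1 Co array and was not tested.

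*Errfi1*, an inhibitor of the EGF receptor, and *Map3k6*, a kinase of stress signaling, showed small differences. *Errfi1* probes gave -0.19 (limma, q = 0.493; 95% confidence interval -0.53 to 0.16) and -0.08 (q = 0.589; -0.25 to 0.10), and *Map3k6* gave -0.11 (q = 0.698; -0.46 to 0.24). On the brighter *Errfi1* probe and on *Map3k6*, Co1 was the highest array and Pg2 the lowest, as on *Fkbp5* probes 1 and 2. Without Co1 these probes gave -0.095 and -0.014.

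*Angptl4* encodes a secreted inhibitor of lipoprotein lipase that is induced by glucocorticoids and by fasting. Its log2 signal was 14.24, 13.50, 14.05 and 13.77 in Co1 to Co4 and 13.56, 13.63, 13.23 and 13.27 in Pg1 to Pg4. Of the Co arrays, 3 lay above all Pg arrays, and Co2 lay among the Pg arrays. The difference was -0.47 ± 0.17 (limma, q = 0.163; 95% confidence interval -0.87 to -0.07). The order differed from that of *Fkbp5*: here Pg3 was the lowest array, and Pg was lower in column 3 by -0.82 and higher in column 2 by 0.13.

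Neither the receptor nor the hormone-activating enzyme passed the test. *Nr3c1*, the glucocorticoid receptor itself, gave 13.12, 12.96, 13.15 and 12.98 in Co1 to Co4 and 12.96, 12.99, 12.97 and 13.04 in Pg1 to Pg4 on its brighter probe. Co1 and Co3 lay above all other Co arrays and all Pg arrays, and the difference was -0.06 ± 0.06 (limma, q = 0.602; 95% confidence interval -0.21 to 0.09). The other *Nr3c1* probe gave 0.04 (q = 0.835; -0.19 to 0.27). *Hsd11b1*, the enzyme that regenerates active glucocorticoid inside cells, gave 10.52, 10.30, 10.64 and 10.61 in Co and 10.40, 10.34, 10.08 and 10.48 in Pg. Pg3 lay below all Co arrays, the other Pg arrays lay among them, and the difference was -0.19 ± 0.11 (q = 0.331; 95% confidence interval -0.45 to 0.06).

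Co1 was the highest of the 8 arrays on 10 of the 17 probes (58.8%), against 15.4% of all tested probes. Pg2 was the lowest on 7 (41.2%), against 17.8%, and a Pg array of any number was the lowest on 15 (88.2%), against 59.2%. These shares were counted after the values had been seen. Several of these probes share a transcript record with another probe of their gene, so the 17 are not independent.

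The other genes of the pathway were read from 3 lists, each gene by its brightest tested probe. Among genes of the receptor complex and of hormone handling, 17 of 18 were tested, and 6 were higher and 11 lower in Pg, with a median difference of -0.07. None was a DEG in limma (background 1.18% of genes), 3 had an unadjusted p under 0.05 (background 20.3%), and 2 had a q under 0.1 (background 6.23%). *Hsp90aa1*, the stress-inducible form of the chaperone that holds the receptor ready for the hormone, was higher in Pg by 0.55 ± 0.12 (limma, q = 0.0645), with 12.19 to 12.70 in Co and 12.88 to 13.13 in Pg and no overlap. *Ep300*, a histone acetyltransferase and coactivator, was lower by -0.53 ± 0.09 (q = 0.0439), with 9.15 to 9.45 in Co and 8.65 to 8.88 in Pg and no overlap. The constitutive chaperone *Hsp90ab1* gave 0.11 (q = 0.362), and the corepressor *Ncor1* gave -0.18 (q = 0.207). The co-chaperone *Fkbp4*, the counterpart of *Fkbp5* in the complex, did not move one way: its brightest probe gave 0.15 (q = 0.220), while the other two, on another transcript record, gave -0.18 (q = 0.129) and -0.34 (q = 0.0589), with no overlap of the groups on either. The mineralocorticoid receptor *Nr3c2* gave -0.13 (q = 0.407).

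Of 30 other genes that glucocorticoids are known to induce, all were tested, 10 were higher and 20 lower in Pg, where 52.8% of all genes were lower, and the median difference was -0.14, against -0.01 over all genes. None was a DEG in limma, 8 had an unadjusted p under 0.05 and 2 a q under 0.1, beside the same 20.3% and 6.23% of all genes, and the 2 were both lower: *Foxo3*, a transcription factor of fasting and atrophy, by -0.28 (limma, q = 0.0636), and *Txnip*, a thioredoxin-binding arrestin that limits glucose uptake, by -0.38 (q = 0.0704). On both, all Pg arrays lay below all Co arrays, and each kept a q under 0.1 in 1 of the 8 fits that left out an array, against 2 for *Hsp90aa1* and 7 for *Ep300*. *Klf15*, a transcription factor of amino acid use, gave -0.34 (q = 0.134), and *Pik3r1*, a regulatory subunit of PI3-kinase, gave -0.33 (q = 0.147). The classic targets *Per1* (0.09, q = 0.667), *Klf9* (-0.02, q = 0.913) and *Dusp1* (0.08, q = 0.864) were near 0, and the signs of *Klf9* and *Dusp1* turned with single arrays left out. *Arrdc2*, an arrestin-domain gene named here after its values were seen, had the most negative value of the list, -0.997 (q = 0.172), with Co1 the highest array and Co3 inside the Pg range, as on *Fkbp5* probes 1 and 2.

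The third list held 14 inflammatory genes that glucocorticoids are known to repress. Of these, 7 were tested, 6 higher and 1 lower in Pg, where 52.8% of all genes were lower, with a median of 0.31 against -0.01 over all genes, and *Il6* was among the 7 that were not well above background on enough arrays. *Icam1*, the adhesion molecule that leukocytes bind on endothelium, was the only DEG of the 7 (1.18% of all genes were DEGs), higher in Pg by 0.74 ± 0.18 (limma, q = 0.0755), with 8.21 to 8.68 in Co and 9.44, 9.19, 8.65 and 9.20 in Pg1 to Pg4. Pg3 alone lay inside the Co range, and *Icam1* had a q of 0.176 with the column as a block. Of the 8 fits that left out 1 array, *Icam1* was a DEG only in that without Pg3. The nitric oxide synthase *Nos2* gave 0.25 (q = 0.166), the adhesion molecule *Vcam1* 0.31 (q = 0.181), the chemokine *Ccl2* 0.54 (q = 0.688) and the chemokine *Ccl5* -0.25 (q = 0.536). *Ccl2* ranged from 6.10 to 8.56 in Co and from 6.55 to 9.13 in Pg, so its groups overlapped widely. Its difference was 0.0064 without Pg1 and 1.06 without Co3. That of *Ccl5* was -0.08 without Pg3 and -0.39 without Pg4. Of the leukocyte markers given above, 8 of the 9 tested were higher in Pg, with a median of 0.36. In limma 2 of the 9 had an unadjusted p under 0.05, beside 20.3% of all genes, and none had a q below 0.1. The 2 were *S100a8*, higher by 2.16 (q = 0.132), and *S100a9*, higher by 2.04 (q = 0.195), with Pg3 inside the Co range on both. The part of leukocytes in these values was not tested. Of 5 endothelial markers 2 were higher and 3 lower. *Kdr*, a receptor for VEGF, was higher in Pg by 0.57 (limma, q = 0.0573), with 11.24 to 11.58 in Co and 11.73 to 12.13 in Pg. *Pecam1* went the other way, by -0.20 (q = 0.151), with all Pg arrays below all Co arrays. The part of endothelial cells in the *Icam1* value was not tested either.

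**Figure D4:**
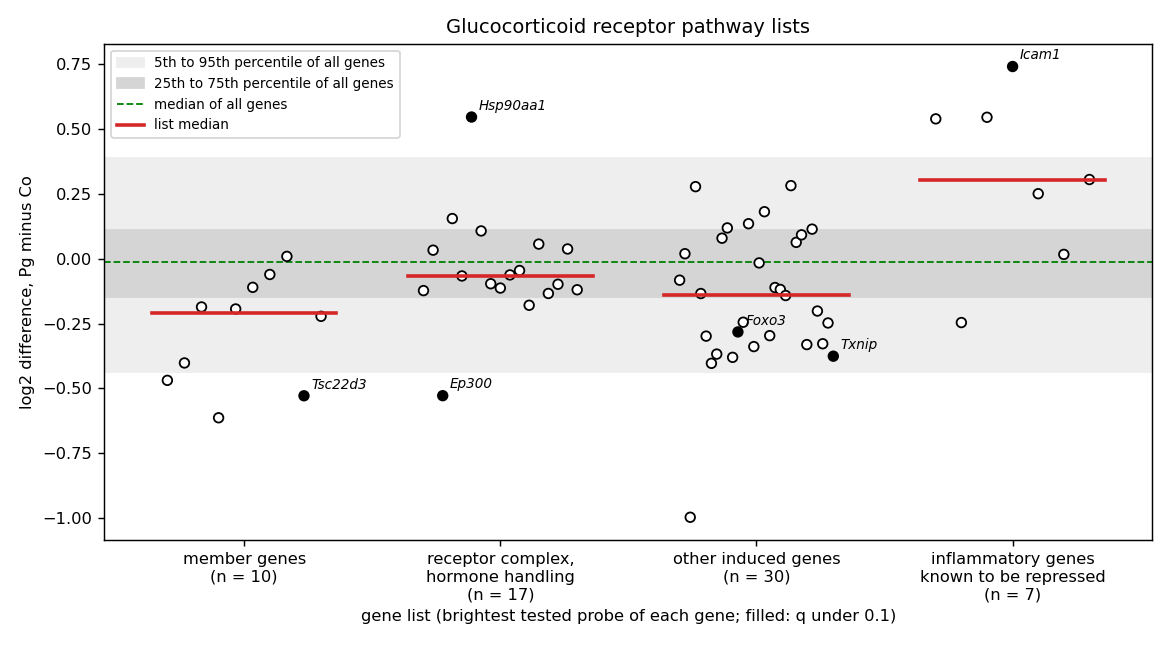
Log2 difference between Pg and Co mice (vertical axis) of each gene by its brightest tested probe, for the member genes and 3 pathway lists (horizontal axis), with filled points at a q under 0.1, red bars for list medians and grey bands for the spread of all 22323 genes. The medians are -0.21, -0.07, -0.14 and 0.31 from left to right.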

How the data were processed

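The authors deposited, per array, the output of Agilent Feature Extraction 11.0.1.1, with the Cy3 intensity of each spot before any normalization between arrays. They also deposited a table of quantile-normalized log2 values, whose columns of their own comparison (log fold change, average, t, p, adjusted p and B) were not used. From the processed, background-subtracted intensity, outlier spots were left out, spots of a probe were averaged, arrays were quantile-normalized, values were raised to at least 1 and log2 was taken. Probes well above background on at least 4 of 8 arrays were fitted with lmFit and eBayes of limma 3.58.1 in R 4.3.3 (data.table version 1.17.8), two-sided, with Benjamini-Hochberg adjustment over all 33819 probes. The normalization and the fit were tested on simulated data with independent noise for each probe. Effects shared by many probes of an array or by a slide row were not simulated. The smallest p that an exact test can give here is 0.0286, and precision is limited by having 4 arrays a group.

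The members, the lists and the alternatives were chosen with earlier results of these data known. All 10 members are given with every probe. Of each list, genes called, then up to 4 with the smallest p, were named, and in any case *Per1*, *Klf9*, *Dusp1*, *Nr3c2*, *Hsp90ab1*, *Fkbp4*, *Icam1*, *Ccl2* and *Il6*. Alternatives were other background corrections, scalings and filters, the authors' values, array weights, each array left out and the replicate number as a block. Probe positions are in mm9 per the file headers, gene positions and promoters are from RefSeq in GRCm38.p6, and no position was converted between builds. By accession, RefSeq gave the same symbol for the probes designed on its transcripts.

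Same-numbered Co and Pg arrays share a slide column, but the labels do not say that a number marks a shared litter or day. The correlations of their deviations from the group means were 0.06, -0.03, -0.07 and 0.18, so the numbers were not taken to pair the samples.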

Additional observations from a re-analysis of the deposited data

Results flagged for a closer look

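The second *Sgk1* probe (A_52_P352246) was outside the tested probes. Its log2 signal was 6.07 in Pg1 and 5.50 in Pg4, where it was well above background, and 2.19 to 2.36 on the 4 Co arrays, where it was not. It was designed on the transcript ENSMUST00000143094, and the main *Sgk1* probe did not show the same pattern. No array lay far enough from the rest of its group, by Dixon's test over the 34 groups of 4 arrays of the tested probes, to stand out.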

How the results depend on the processing

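Of the 17 member probes, 1 was a DEG and 3 had a q under 0.1, and of the pathway lists 1 gene was a DEG. Both member counts stayed the same with scaling to the 75th percentile, with a filter on all 8 arrays and with array weights. With normexp on the mean signal the DEG count was 0, with 3 at a q under 0.1. The median signal without background subtraction gave 5 at a q under 0.1, among them *Fkbp5* probe 1 as the DEG in place of probe 3. The authors' log2 values, which list 13 of these probes, gave 1 DEG and 2 at a q under 0.1. Without normalization between arrays, without a filter on dim probes and with a filter on at least 1 array, all 3 counts were 0. The replicate number as a block also gave 0 for all 3 counts, with 0 DEG probes on the whole array, and 2 of the 4 Co arrays had their own number as best partner. The DEG probes of the whole array, 546 here, were 27 without normalization, 94 with normexp and 106 with the authors' values. With each array left out in turn, the DEG count of the member probes was 0 to 2, the count at a q under 0.1 was 0 to 4, and the pathway genes called were 0 to 1 (*Hsp90aa1* without Co2, *Icam1* without Pg3). The member probes were lower in Pg for 15 or 16 of 17 wherever the 4-array filter was kept, and for 12 of 13 with the authors' values. The *Sgk1* difference turned to -0.0215 with scaling to the 75th percentile, and that of *Klf9* to 0.00407 without normalization. With arrays left out, signs turned for *Sgk1* (-0.128 to 0.0897), *Dusp1* (-0.108 to 0.217), *Klf9* (-0.0400 to 0.0303) and the dimmer *Nr3c1* probe (-0.0286 to 0.104). The cause of these changes was not tested.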
